A study of Mus musculus with 12 samples.

Results

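The 10 genes described here encode parts and regulators of the cytoskeleton, namely the intermediate filament protein vimentin (*Vim*), the actin-binding proteins filamin A (*Flna*), IQGAP1 (*Iqgap1*) and the beta-thymosins (*Tmsb4x*, *Tmsb10*), the microtubule regulator stathmin (*Stmn1*), and the tubulins *Tubb5*, *Tubb6*, *Tuba1b* and *Tuba1c*. They were chosen by name from earlier results of these same libraries, out of 55401 genes counted. Which comparison led to each choice was not recorded, so that all differences between groups in these 10 genes are a description of the libraries, and no count of them is independent evidence of a direction. RNA of FACS-sorted CD45int CD11b+ microglia, the resident macrophages of the brain, was sequenced in 12 libraries, with 3 libraries for every combination of genotype (WT or miKO) and surgery (Sham or tFCI). WT mice were CX3CR1wt/wt:HDAC3loxp/loxp, and miKO mice were CX3CR1CreER/wt:HDAC3loxp/loxp, so that the floxed alleles were common to all groups and miKO microglia also carried a CreER insertion in 1 *Cx3cr1* allele. Recombination was induced with tamoxifen on 5 consecutive days at 6 to 8 weeks of age and surgery followed at least 1 month later; whether WT mice received tamoxifen too is not given in the sources used here. All mice were male. tFCI (transient focal cerebral ischemia, an experimental stroke) was made by occluding the middle cerebral artery for 60 min, and the cells were sorted 3 days later. Sham mice had the same surgery without occlusion. Each library pooled microglia of 3 to 4 hemispheres. The Cre driver is active in *Cx3cr1*-expressing cells, which are not microglia alone, and the sorted gate can hold other CD11b+ cells.

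Microglia change shape after brain injury, from cells with long fine processes to rounded cells that move and take up debris. The actin network behind such movement is built from monomers that beta-thymosins hold in reserve and is crosslinked by filamins. Microtubules are polymers of alpha- and beta-tubulin dimers, which stathmin binds and keeps from assembling, and stathmin and tubulins are also high in dividing cells. Vimentin forms intermediate filaments in mesenchymal cells, astrocytes and activated macrophages, so that its RNA is not specific to microglia.

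Counts on genes were 7697864 to 9452222 per library. The targeted gene *Hdac3* was at 34.98, 44.0 and 46.4 CPM (counts scaled by library size and the TMM factor to a common total) in WT-Sham and at 25.8, 24.97 and 20.9 CPM (miKO-Sham). In WT-tFCI its level was 54.0, 52.9 and 43.9 CPM, and in miKO-tFCI 36.0, 27.1 and 28.9 CPM; no miKO library reached the WT libraries of its surgery. The summed level of 9 microglia markers was 19674 to 27412 CPM in the Sham libraries, 15534 to 17296 CPM in WT-tFCI and 8025 to 15704 CPM in miKO-tFCI. Of these markers, 6 of 9 (WT) and 9 of 9 (miKO) were called lower after tFCI, where the 10 genes were higher, and their part in those differences was not tested. Of all genes, 11.7% (WT) and 13.9% (miKO) were called lower. The labels place replicate 1 of each group in batch 1 and replicates 2 and 3 in batch 2. After tFCI, replicate 1 of both genotypes stood apart in markers of other cells, high in some lists and low in others. The summed level of 9 pericyte and fibroblast markers was 879, 224 and 211 CPM in WT-tFCI replicates 1 to 3 and 1753, 469.5 and 567 CPM (miKO-tFCI), against 2.64 to 5.95 CPM in WT-Sham and 12.4 to 13.5 CPM in miKO-Sham. The summed level of 10 monocyte markers was 664, 364 and 427 CPM (WT-tFCI) and 978, 434 and 495 CPM (miKO-tFCI). In Sham it was 13.03 to 95.1 CPM in WT and 58.8 to 117 CPM in miKO. Replicate 1 was instead the lowest of each tFCI group in the summed level of 10 neutrophil markers, at 491, 538 and 587 CPM (WT-tFCI) and 918, 1236 and 1259 CPM (miKO-tFCI). The same held for 10 markers of border-associated macrophages, at 215, 336 and 317 CPM (WT-tFCI) and 399, 783 and 958 CPM (miKO-tFCI). In Sham the neutrophil sums were 636.5 to 1359 CPM (WT) and 1097 to 1134 CPM (miKO), above all WT-tFCI libraries. Those of border-associated macrophages were 117.6 to 143.8 CPM (WT-Sham) and 116.4 to 396.7 CPM (miKO-Sham). miKO-Sham replicates 1 and 2 were the closest pair of libraries of any group by a chi-square of their counts (2.88 per degree of freedom, against 3.87 to 86.4 in the other pairs), although the labels put them in different batches. They differed by more than sampling noise and were kept as separate libraries, and results that change without either of them are given as such.

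Coding sequences are shown for the beta-thymosins, whose counts the results set against each other. *Tmsb4x* and *Tmsb10* encode beta-thymosins from coding sequences of 135 bases each, which differ at 40 positions (70.4% identical), so that reads of 150 bases tell them apart. The capitals mark the bases that differ, in the GENCODE M21 transcripts of GRCm38, 5′ to 3′.
*Tmsb4x* (Tmsb4x-201): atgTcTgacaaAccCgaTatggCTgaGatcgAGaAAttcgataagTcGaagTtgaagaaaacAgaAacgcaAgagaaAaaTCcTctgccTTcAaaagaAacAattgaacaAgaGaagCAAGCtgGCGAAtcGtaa
*Tmsb10* (Tmsb10-203): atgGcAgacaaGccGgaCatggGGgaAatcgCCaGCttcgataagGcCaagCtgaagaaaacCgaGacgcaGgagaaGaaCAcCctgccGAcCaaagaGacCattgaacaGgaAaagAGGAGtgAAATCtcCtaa

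*Tuba1b* and *Tuba1c* encode alpha-tubulins, and their coding sequences are 97.9% identical. Of all stretches of 150 bases in their transcripts, 51.5% in *Tuba1b* and 40.1% in *Tuba1c* also occur in other genes. *Tuba1b* shares 15.6% of them with *Tuba1a* and 36.2% with *Tuba1c*, and further copies are in pseudogenes. The deposited counts set aside reads that aligned to more than 1 place, so that the counts of both genes rest on part of their length and are uncertain. *Stmn1* shares 7.90% of such stretches with *Gm11223* and *Tmsb10* shares 4.36% with *Gm9844*, whereas the other 6 genes shared none.

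In GRCm38, *Vim* (ENSMUSG00000026728.9) lies on chromosome 2 from 13573927 to 13582826 and *Flna* (ENSMUSG00000031328.16) on chromosome X from 74223461 to 74249820. *Iqgap1* (ENSMUSG00000030536.10) lies on chromosome 7 from 80711583 to 80825974, where 145 exon bases overlap the antisense gene *Gm44649*. *Tmsb4x* (ENSMUSG00000049775.16) is on chromosome X from 167207093 to 167209315 and *Tmsb10* (ENSMUSG00000079523.8) on chromosome 6 from 72957347 to 72958748. *Stmn1* (ENSMUSG00000028832.11) is on chromosome 4 from 134468320 to 134473843, *Tubb5* (ENSMUSG00000001525.10) on chromosome 17 from 35833921 to 35838306, and *Tubb6* (ENSMUSG00000001473.7) on chromosome 18 from 67390717 to 67402749. *Tuba1b* (ENSMUSG00000023004.8) and *Tuba1c* (ENSMUSG00000043091.9) are both on chromosome 15, from 98931425 to 98934565 and from 99029891 to 99038110. *Tuba1b* shares 87 exon bases with the antisense gene *Gm41396* and 426 with *Gm49450* on its own strand, which had 0 counts in every library. The library kit does not mark strand, so that reads of a gene and its antisense partner cannot be told apart.

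All 10 genes were higher after tFCI in WT microglia. The fold between group means in the fit ran from 1.91 for *Tmsb4x* to 34.2 for *Vim*, with *Stmn1* (11.6-fold) and *Iqgap1* (8.94-fold) next. A gene was called when edgeR's quasi-likelihood test gave a Benjamini-Hochberg adjusted p under 0.05 and the log2 fold change passed 0.58 in size. By this rule 10 of the 10 were called higher in WT-tFCI vs. WT-Sham, where 20.9% of all 16451 genes tested were called higher and 11.7% lower. In miKO-tFCI vs. miKO-Sham, 9 of the 10 were called higher, where 21.9% of all genes were called higher and 13.9% lower. None was called lower in either comparison, also with an unadjusted p under 0.05 and with DESeq2. The genotypes differed in fewer of these genes. Between the tFCI groups (miKO-tFCI vs. WT-tFCI), *Vim*, *Iqgap1* and *Flna* were called higher (3 of 10, against 4.08% of all genes) and *Stmn1* lower (1 of 10, against 4.71%). Between the Sham groups (miKO-Sham vs. WT-Sham), *Vim*, *Iqgap1*, *Flna*, *Tuba1c* and *Tubb5* were called higher (5 of 10, against 8.58%) and *Tubb6* and *Tmsb10* lower (2 of 10, against 6.8%). The difference between the genotypes' responses to tFCI, tested as an interaction, was called negative for *Stmn1* and *Tuba1c* (2 of 10, against 2.57%). None was called positive by edgeR (1.25% of all genes were), 2 were positive at an unadjusted p under 0.05, and DESeq2 called the same number.

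**Figure D1:**
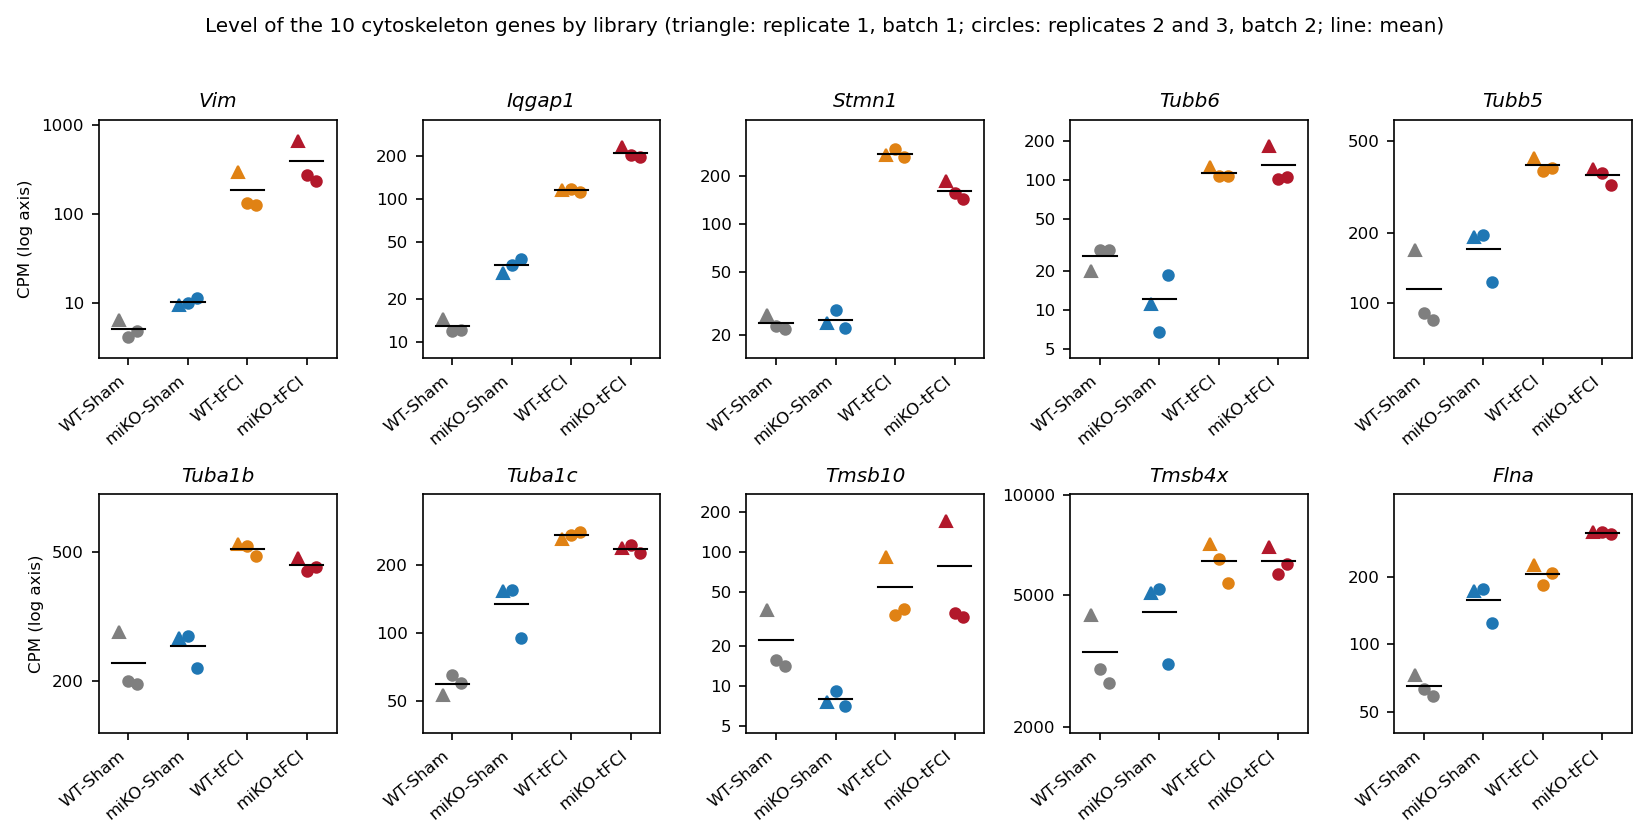
Level of each of the 10 genes in CPM on a log axis, with 1 point for each of the 12 libraries, triangles for replicate 1 (batch 1), circles for replicates 2 and 3 (batch 2) and a line at the group mean. *Vim* rises from 4.15 to 6.49 CPM in WT-Sham to 128 to 299 CPM in WT-tFCI, and *Tmsb10* and *Vim* show a replicate 1 above the other tFCI libraries of its genotype.

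The median log2 fold change of the 10 genes after tFCI was 1.97 for WT and 1.84 for miKO, beside 0.02 and 0.03 over all genes tested. In miKO-tFCI vs. WT-tFCI it was 0.09 beside 0.04, in miKO-Sham vs. WT-Sham 0.52 beside 0.04, and in the interaction -0.49 beside -0.02. Scaling by library totals in place of TMM moved all genes by -0.28 (log2) in miKO-Sham vs. WT-Sham and by -0.10 in miKO-tFCI vs. WT-tFCI. It turned the all-gene calls from 1411 higher and 1119 lower to 834 and 2398 in the first, and from 671 and 775 to 491 and 1061 in the second. In the interaction the calls went from 206 positive and 423 negative to 292 and 279. In miKO-tFCI vs. miKO-Sham the shift was 0.13.

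**Figure D2:**
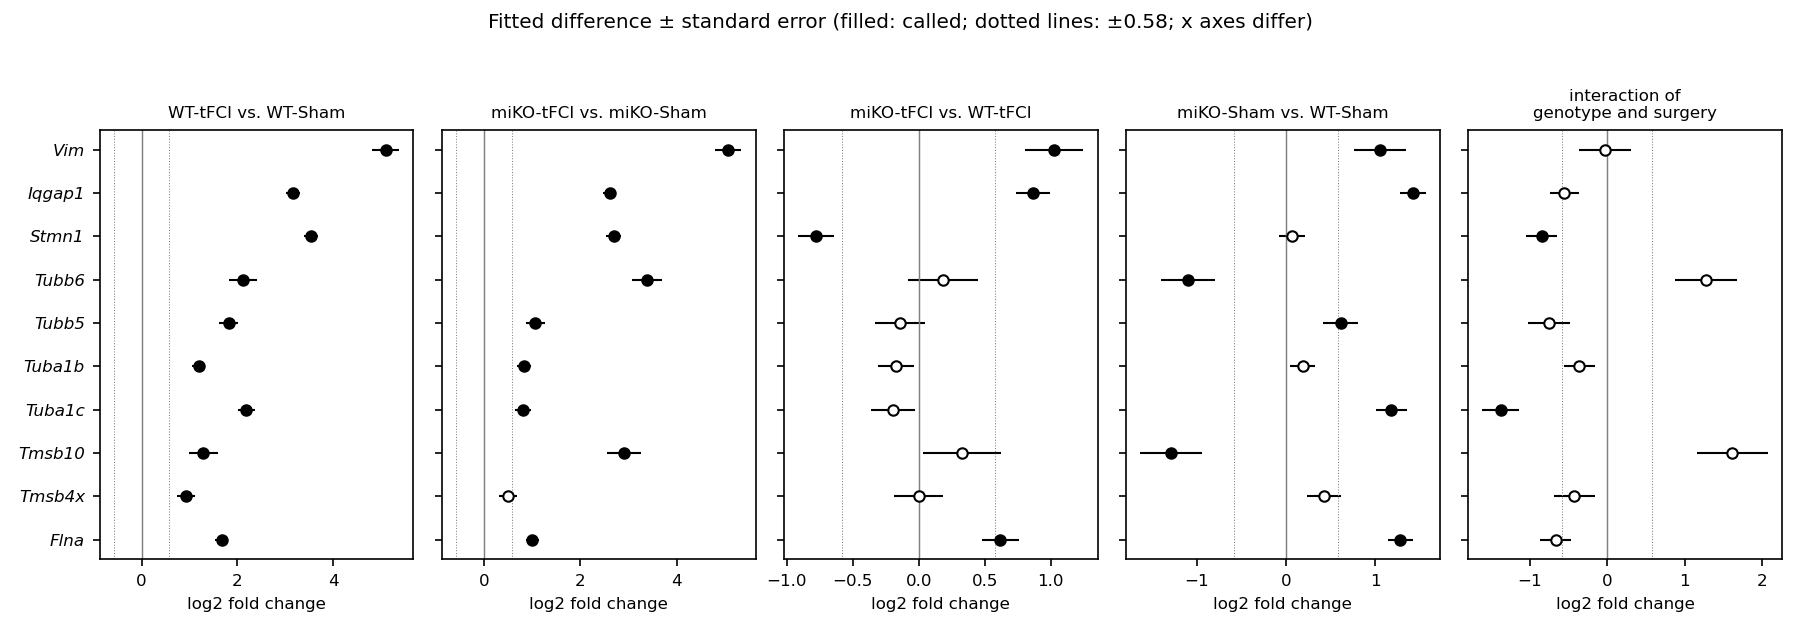
Fitted log2 fold change of each gene with its standard error in the 4 comparisons of groups and the interaction of genotype and surgery, with filled points for genes past both thresholds and dotted lines at ±0.58. *Vim* lies at 5.10 and 5.07 in the comparisons of surgery and at 1.03 and 1.05 in those of genotype, and *Tmsb10* and *Tubb6* lie below 0 in miKO-Sham vs. WT-Sham.

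*Vim* encodes the intermediate filament protein vimentin. In the order of replicates 1, 2 and 3, its level was 6.49, 4.15 and 4.82 CPM (WT-Sham) and 9.44, 9.85 and 11.4 CPM (miKO-Sham). After tFCI it was 299, 134 and 128 CPM in WT and 660.1, 273 and 233 CPM in miKO. Every tFCI library was above every Sham library, replicate 1 was the highest library of both tFCI groups, and the tFCI groups of the 2 genotypes overlapped. The log2 fold change was 5.10 (SE 0.28) in WT-tFCI vs. WT-Sham and 5.07 (SE 0.27) in miKO-tFCI vs. miKO-Sham, and the interaction was -0.03 (SE 0.33). For miKO relative to WT after tFCI, it was 1.03 (SE 0.22, edgeR adjusted p = 0.00940), with 1.14 within batch 1 and 0.95 within batch 2. Without miKO-tFCI replicate 1 it was 0.73 (edgeR adjusted p = 0.0528) and without WT-tFCI replicate 3 it was 0.96 (adjusted p = 0.0582). Over all alternatives the adjusted p ran from 1.40e-08 to 0.153, the highest with no batch term. In miKO-Sham vs. WT-Sham the 3 miKO libraries were above the 3 WT libraries, with a log2 fold change of 1.05 (SE 0.29, edgeR adjusted p = 0.0191, 1.25e-05 to 0.196 over the alternatives). The Sham call was lost in 8 of 24 alternatives, among them scaling by library totals (0.79, adjusted p = 0.0792) and leaving out WT-Sham replicate 1 or 2 or miKO-Sham replicate 2 or 3 (0.80 to 1.04).

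The tFCI library with the most *Vim* in each genotype also had the most marker RNA of dendritic cells, pericytes and fibroblasts, monocytes, endothelial cells and astrocytes. It had the least of neutrophils, border-associated macrophages and microglia. Replicate 1 had 2.29 times the mean *Vim* level of replicates 2 and 3 in WT-tFCI and 2.61 times in miKO-tFCI. These ratios were largest for 7 dendritic cell markers, 5.57 and 6.61, among the lists given here. For the summed pericyte and fibroblast markers they were 4.04 and 3.38, and for the monocyte markers 1.68 and 2.11. For 8 endothelial markers they were 3.10 and 2.79, and for 7 astrocyte markers 1.45 and 2.46. The summed astrocyte markers were 215, 155 and 139.9 CPM (WT-tFCI) and 347, 131 and 150.03 CPM (miKO-tFCI), and the endothelial markers 196, 67.1 and 59.3 CPM against 330.0, 125 and 111 CPM. In Sham the astrocyte sums were 182 to 198.9 CPM (WT) and 111.5 to 137.7 CPM (miKO), so that WT-tFCI replicates 2 and 3 were below WT-Sham. The endothelial sums in Sham were 23.19 to 28.85 CPM (WT) and 14.09 to 17.91 CPM (miKO). Of the lists, 8 of 8 tested pericyte and fibroblast markers and 4 of 9 monocyte markers were called higher in WT-tFCI vs. WT-Sham, against 20.9% of all genes. In WT-Sham the pericyte and fibroblast markers summed to at most 5.95 CPM, and the monocyte markers to 24.4 and 13.03 CPM in replicates 2 and 3. Markers this low could pass the filter on low counts through their tFCI levels. Such markers could hardly be called lower, so that these counts are a description. In miKO-tFCI vs. WT-tFCI, 4 of the 8 pericyte and fibroblast markers were called higher and 1 lower, 3 of the 9 monocyte markers and 2 of the 7 astrocyte markers were called higher, and 1 astrocyte marker was lower. In the same comparison 6 of 9 tested neutrophil markers and 4 of 10 markers of border-associated macrophages were called higher, and 4 of 9 microglia markers lower. Of 6 tested dendritic cell markers 1 was called higher, and of 8 endothelial markers 0 were called in either direction. Of all genes, 4.08% were called higher there and 4.71% lower. *Rgs5* and *Cspg4* had 0 counts in every WT-Sham library. *Cspg4* and the monocyte marker *S100a4* had 0 in every miKO-Sham library, and no marker of these lists was at 0 throughout a tFCI group. In these bulk samples, more cells of a type and more RNA per cell cannot be told apart, and the part of other cells in the level of *Vim* was not tested.

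**Figure D3:**
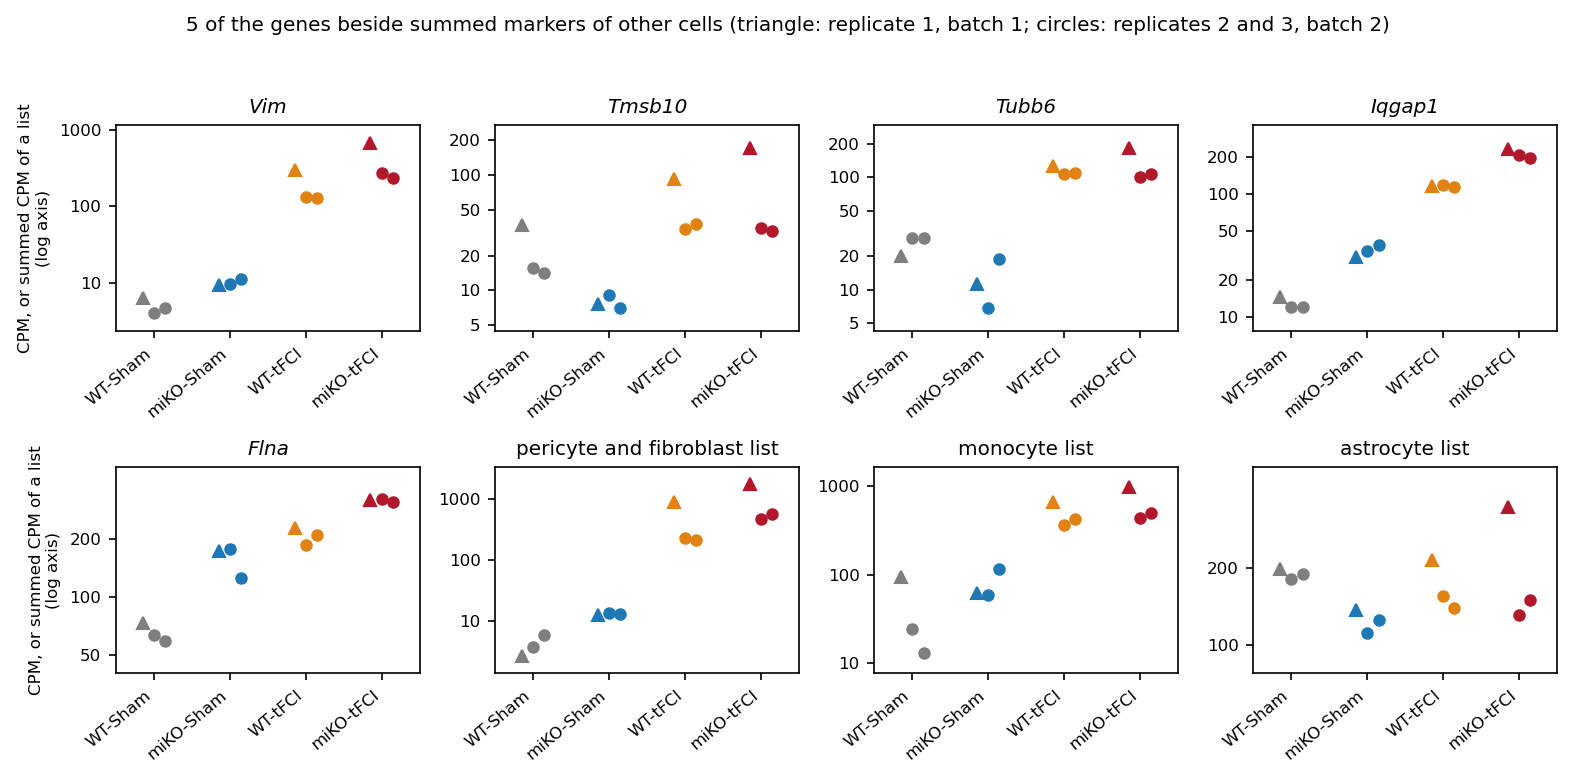
Level of 5 of the genes and the summed level of 3 marker lists in CPM on log axes, with 1 point per library, triangles for replicate 1 and circles for replicates 2 and 3. *Vim*, *Tmsb10* and the pericyte and fibroblast list show replicate 1 of each tFCI group above its other libraries, whereas *Flna* lies at 312 to 320.3 CPM in all miKO-tFCI libraries.

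*Iqgap1* and *Flna* were higher in every miKO library than in every WT library of the same surgery. IQGAP1 is a scaffold that links Rac1 and Cdc42 to actin filaments. Its level was 14.7, 12.1 and 12.1 CPM (WT-Sham), 30.5, 34.7 and 38.4 CPM (miKO-Sham), 117, 118 and 113 CPM (WT-tFCI), and 231, 206 and 197 CPM (miKO-tFCI). No library of any group overlapped another group. *Iqgap1* was higher by 0.87 (log2, SE 0.13, edgeR adjusted p = 0.000708, 2.38e-08 to 0.00943 over the alternatives) in miKO-tFCI vs. WT-tFCI. For miKO relative to WT in Sham, it was higher by 1.42 (SE 0.14, edgeR adjusted p = 7.33e-06, 7.77e-16 to 0.000259 over the alternatives). Both calls held in all 24 alternatives, and within batches 1 and 2 the differences were 0.99 and 0.80 after tFCI and 1.05 and 1.57 in Sham. After tFCI it rose by 3.16 (SE 0.14) in WT and 2.61 (SE 0.14) in miKO, with an interaction of -0.55 (SE 0.19, edgeR adjusted p = 0.136, 0.0227 to 0.361 over the alternatives).

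Filamin A crosslinks actin filaments and ties them to membrane receptors. The level of *Flna* was 73.2, 63.3 and 58.9 CPM (WT-Sham), 173, 176 and 125 CPM (miKO-Sham), 228, 184 and 208 CPM (WT-tFCI), and 318, 320.3 and 312 CPM (miKO-tFCI). No groups overlapped, with both Sham groups below both tFCI groups and miKO above WT in each surgery. *Flna* rose by 1.67 (log2, SE 0.14) after tFCI in WT and by 1.01 (SE 0.14) in miKO. It was higher by 1.28 (SE 0.14, edgeR adjusted p = 1.77e-05, 2.66e-18 to 0.000261 over the alternatives) in miKO-Sham vs. WT-Sham, in all 24 alternatives. For miKO relative to WT after tFCI, the difference was 0.62 (SE 0.14, edgeR adjusted p = 0.0123, 7.73e-05 to 0.0770 over the alternatives), close to the fold threshold. It was 0.57 without WT-tFCI replicate 2 (adjusted p = 0.0770) and 0.52 with scaling by library totals, and both were below 0.58. The interaction was -0.66 (SE 0.20, edgeR adjusted p = 0.0851, 0.0184 in DESeq2).

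The beta-thymosins bind actin monomers. *Tmsb4x* was the most abundant of the 10 genes. Its level was 4364, 2997 and 2716 CPM (WT-Sham), 5077, 5197 and 3094 CPM (miKO-Sham), 7104, 6440.5 and 5423 CPM (WT-tFCI), and 6998, 5771 and 6182 CPM (miKO-tFCI). All tFCI libraries were above all Sham libraries, and the genotypes overlapped after both surgeries. It rose by 0.93 (log2, SE 0.19) after tFCI in WT. In miKO the difference of 0.51 (SE 0.19) was below the fold threshold, and it passed that threshold without miKO-Sham replicate 2 (0.73) and with scaling by library totals (0.64). The difference in miKO-tFCI vs. WT-tFCI was 0.00 (SE 0.19), an estimate with 2 SE on either side of -0.37 to 0.37.

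*Tmsb10* was lower in miKO-Sham and high in the batch 1 libraries. Its level was 36.7, 15.6 and 14.1 CPM (WT-Sham), 7.64, 9.16 and 7.04 CPM (miKO-Sham), 92.4, 33.8 and 37.5 CPM (WT-tFCI), and 171, 34.8 and 32.5 CPM (miKO-tFCI). Replicate 1 was the highest library of the other 3 groups, but not of miKO-Sham. WT-tFCI replicates 2 and 3 lay on either side of WT-Sham replicate 1, so that this pair of groups overlapped. The 3 miKO-Sham libraries were below the 3 WT-Sham libraries, with a log2 fold change of -1.29 (SE 0.35, edgeR adjusted p = 0.0173, 1.23e-08 to 0.181 over the alternatives). This difference was -2.23 within batch 1 and -0.86 within batch 2. Without miKO-Sham replicate 1 it was -0.73 (edgeR adjusted p = 0.0812). After tFCI *Tmsb10* rose by 1.29 (SE 0.31) in WT, a call lost without the batch term (adjusted p = 0.120), and by 2.91 (SE 0.35) in miKO, with 4.44 within batch 1 and 2.03 within batch 2. The interaction of 1.62 (SE 0.46, edgeR adjusted p = 0.0668, 5.29e-07 to 0.341 over the alternatives) came to 3.11 in batch 1 and to 0.78 in batch 2. The within-batch differences between the tFCI groups had opposite signs, 0.89 and -0.08. Summed monocyte markers of the WT-Sham libraries also differed by batch, 95.1 CPM in replicate 1 against 24.4 and 13.03 CPM, and their part in *Tmsb10* was not tested. For *Tmsb4x* the same Sham difference was 0.43 (SE 0.19, edgeR adjusted p = 0.135), which was not called.

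*Stmn1* encodes stathmin, which binds tubulin dimers. It was at 26.8, 22.7 and 21.9 CPM (WT-Sham), 23.9, 28.6 and 22.2 CPM (miKO-Sham), 272, 294 and 261 CPM (WT-tFCI), and 186, 156 and 143 CPM (miKO-tFCI). The Sham groups overlapped, and every miKO-tFCI library was below every WT-tFCI library. *Stmn1* rose by 3.54 (log2, SE 0.15) in WT and by 2.69 (SE 0.15) in miKO. In miKO-tFCI vs. WT-tFCI it fell by 0.78 (SE 0.14, edgeR adjusted p = 0.00252, 1.26e-05 to 0.0242 over the alternatives), a call that held in all 24 alternatives. Within batches 1 and 2 the difference was -0.55 and -0.89. The Sham difference was 0.07 (SE 0.15), with 2 SE on either side from -0.23 to 0.36. The interaction was -0.85 (SE 0.20, edgeR adjusted p = 0.0302, 0.00627 to 0.119 over the alternatives), and 9 of 23 alternatives lost this call, 7 of them by leaving out a single library. These were WT-Sham replicate 2 or 3, miKO-Sham replicate 2, WT-tFCI replicate 2 or 3, and miKO-tFCI replicate 2 or 3 (-0.85 to -0.71). Cell cycle genes were also lower in miKO-tFCI. The summed level of 25 of them was 1322, 1651 and 1556 CPM in WT-tFCI replicates 1 to 3 and 859.8, 978.1 and 1092 CPM in miKO-tFCI. In Sham it was 154 to 164 CPM in WT and 193 to 215 CPM in miKO. Within miKO-tFCI the order of the replicates was the reverse of that of *Stmn1*, and in WT-tFCI replicate 2 was the highest in both. All 25 were called higher after tFCI in both genotypes (20.9% of all genes in WT and 21.9% in miKO). In miKO-tFCI vs. WT-tFCI 13 were called lower (52%, against 4.71%). The part of dividing cells in *Stmn1* was not tested.

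The beta-tubulins *Tubb5* and *Tubb6* both rose after tFCI and went opposite ways in miKO-Sham. *Tubb5*, a widely expressed beta-tubulin, was at 169, 89.9 and 84.2 CPM (WT-Sham), 191, 195 and 123 CPM (miKO-Sham), 421, 369.9 and 381 CPM (WT-tFCI), and 378, 361 and 323 CPM (miKO-tFCI). The tFCI libraries were above all Sham libraries, and the genotypes overlapped after both surgeries. It rose by 1.82 (log2, SE 0.20) in WT and by 1.07 (SE 0.19) in miKO. The Sham difference between genotypes was 0.61 (SE 0.19, edgeR adjusted p = 0.0396, 0.00214 to 0.205 over the alternatives), with 0.18 within batch 1 and 0.83 within batch 2. It was not called in 12 of 24 alternatives, which include leaving out WT-Sham replicate 2 or 3 (0.50 and 0.46), miKO-Sham replicate 1 or 2 (0.67 and 0.41), WT-tFCI replicate 2 or 3 (0.60 for both) or miKO-tFCI replicate 3 (0.59).

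*Tubb6* was at 20.1, 28.9 and 29.0 CPM (WT-Sham), 11.2, 6.80 and 18.6 CPM (miKO-Sham), 127, 107 and 108 CPM (WT-tFCI), and 184, 102 and 107 CPM (miKO-tFCI). The miKO-Sham libraries were below all WT-Sham libraries, and the tFCI groups overlapped. The rise was 2.12 (log2, SE 0.28) in WT and 3.39 (SE 0.31) in miKO. In miKO-Sham vs. WT-Sham it fell by 1.09 (SE 0.30, edgeR adjusted p = 0.0204, 8.85e-08 to 0.0816 over the alternatives), with -0.82 within batch 1 and -1.34 within batch 2. Leaving out WT-Sham replicate 2 or 3 or miKO-Sham replicate 1 or 2 lost the call (-1.002, -0.99, -0.96 and -0.81). The interaction was 1.28 (SE 0.40, edgeR adjusted p = 0.104, 0.0331 by DESeq2). For miKO relative to WT after tFCI, the difference was 0.18 (SE 0.27), with 2 SE on either side from -0.35 to 0.71, and it turned to -0.20 without miKO-tFCI replicate 1.

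Among the alpha-tubulins, the sum of *Tuba1a*, *Tuba1b* and *Tuba1c* rose after tFCI in both genotypes, while the shares of *Tuba1a* and *Tuba1c* in WT-Sham did not overlap those of the other 3 groups. *Tuba1b* was at 283, 199.9 and 196 CPM (WT-Sham), 271, 275 and 219 CPM (miKO-Sham), 529, 520.1 and 484 CPM (WT-tFCI), and 479, 436 and 447 CPM (miKO-tFCI). *Tuba1c* was at 52.8, 64.9 and 60.2 CPM (WT-Sham), 153, 154 and 95.2 CPM (miKO-Sham), 259.8, 271 and 280.3 CPM (WT-tFCI), and 238, 245 and 227 CPM (miKO-tFCI). The Sham genotypes overlapped in *Tuba1b* and did not overlap in *Tuba1c*, where miKO-Sham replicate 3 was the lowest of its group. *Tuba1b* rose by 1.19 (log2, SE 0.14) in WT and by 0.83 (SE 0.14) in miKO after tFCI. *Tuba1c* rose by 2.19 (SE 0.17) in WT and by 0.82 (SE 0.17) in miKO.

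In miKO-Sham vs. WT-Sham, *Tuba1c* was higher by 1.18 (log2, SE 0.17, edgeR adjusted p = 0.000194, 2.57e-11 to 0.00971 over the alternatives), and the interaction was -1.37 (SE 0.24, edgeR adjusted p = 0.00453, 1.01e-07 to 0.0257). Both calls held in all alternatives that kept the genes apart. *Tuba1a*, which is not among the 10 genes, fell by 0.92 (SE 0.18, edgeR adjusted p = 0.00248) in this comparison, from 326, 233 and 253 CPM to 137, 135 and 147 CPM. *Tuba1c* held 7.97% to 13.02% of the 3 genes' counts in WT-Sham, 20.7% to 27.4% in miKO-Sham, 23.9% to 29.0% in WT-tFCI and 19.8% to 27.2% in miKO-tFCI. The share of *Tuba1a* was 46.9% to 49.7% in WT-Sham and 20.9% to 40.5% over the other 9 libraries. With the counts of the 3 genes added together, miKO-Sham vs. WT-Sham gave -0.08 (SE 0.14) and the interaction 0.04 (SE 0.19), and neither was called, whereas the rise after tFCI was 0.85 (SE 0.14) in WT and 0.89 (SE 0.14) in miKO. Whether reads were assigned to the right copy was not tested.

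**Figure D4:**
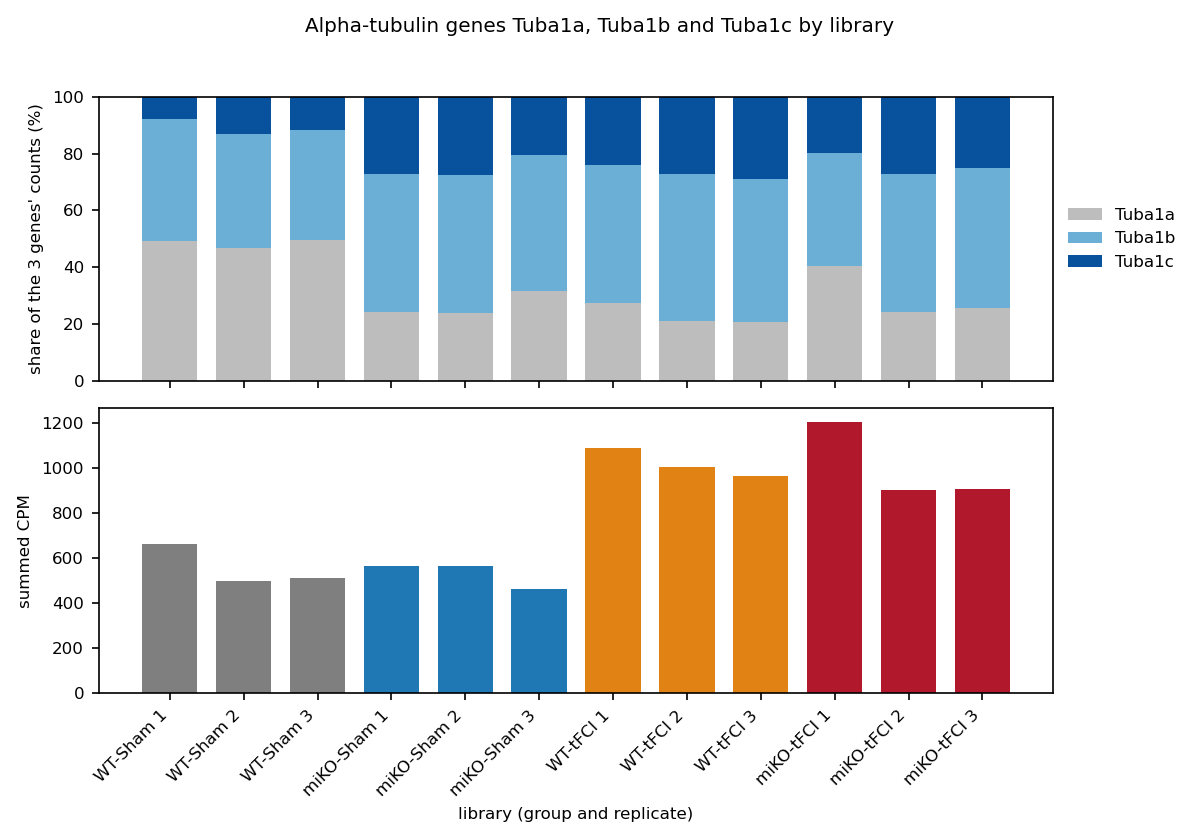
Share of *Tuba1a*, *Tuba1b* and *Tuba1c* in their summed counts (upper bars, percent) and their summed level (lower bars, CPM) in each of the 12 libraries. The summed level is 461 to 662 CPM in the Sham libraries and 900.5 to 1204 CPM in the tFCI libraries, and *Tuba1a* takes the largest share in the WT-Sham libraries.

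Compared per kilobase of merged exons, the 10 genes spanned more than 3 orders of magnitude in WT-Sham. *Tmsb4x* was first in every group, at 2450 ± 643 CPM per kb (SD, n = 3) in WT-Sham and 4612 ± 618 CPM per kb in WT-tFCI, and *Tuba1b* was second, at 121 ± 26.4 and 273 ± 12.9 CPM per kb. *Iqgap1* was last in every group, at 0.783 ± 0.0894 CPM per kb in WT-Sham and 12.8 ± 1.07 CPM per kb in miKO-tFCI. *Stmn1* went from rank 6 in WT-Sham (12.4 ± 1.37 CPM per kb) to rank 3 in WT-tFCI (143 ± 8.65 CPM per kb) and was at rank 5 in miKO-tFCI (84.1 ± 11.4 CPM per kb). Neighbours in this order whose libraries overlapped were *Tubb5*, *Tuba1c*, *Tmsb10*, *Stmn1* and *Tubb6* in WT-Sham, each with the next, and there also *Vim* with *Iqgap1*. In miKO-Sham the overlapping neighbours were *Tuba1c* with *Tubb5*, *Flna* with *Stmn1*, *Tmsb10* with *Tubb6*, and *Vim* with *Iqgap1*, and in WT-tFCI *Tuba1c* with *Tubb5*, and *Tubb6*, *Tmsb10* and *Vim* in turn. In miKO-tFCI, *Tubb5* overlapped *Tuba1c*, and *Stmn1*, *Vim*, *Tmsb10* and *Tubb6* overlapped in turn.

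Promoters were taken from a RefSeq table of GRCm38.p6. Of 8 of the genes with an entry, 4 (*Vim*, *Iqgap1*, *Tubb5* and *Tuba1c*) had CCAAT on either strand between 250 bases before and 50 bases after the start, a motif present in 41.1% of all genes. The AP-1 motif TGANTCA and the CArG box bound by serum response factor were in 0 of the 8, and in 8.97% and 1.81% of all genes. *Vim* alone had TATAAA (15.7% of all genes), shown in capitals with the bases around it because this gene had the widest range over the groups.
*Vim* promoter, chr2:13574269-13574294, plus strand, 32 bases before the start: ctaacagtgtTATAAAagcagcgccc

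Of the paralogs of the 10 genes, 15 of 23 passed the filter on low counts. In WT-tFCI vs. WT-Sham 9 were called higher (60%, against 20.9% of all genes tested). In miKO-tFCI vs. miKO-Sham 11 were called higher (73.3%, against 21.9%) and 1 lower (6.67%, against 13.9%). *Des*, *Gfap*, *Flnc*, *Tubb3*, *Stmn2* and *Stmn4* were at or near 0 in Sham and passed this filter through their tFCI libraries. Their direction after tFCI was thus largely fixed by the filter, and these counts are a description. *Iqgap2* (4 to 11 counts per library) and *Tubb4a* (4 to 7) were also low in WT-Sham. They passed the filter through other groups, which favours higher calls against WT-Sham. *Tubb4b*, a beta-tubulin, was at 224 ± 33.1 CPM (SD, n = 3) in WT-tFCI against 58.7 ± 5.38 CPM in WT-Sham (log2 fold change 1.92, SE 0.20). *Iqgap2* rose by 3.04 (SE 0.41) in WT and 1.88 (SE 0.34) in miKO, and it was higher in miKO-Sham vs. WT-Sham by 2.32 (SE 0.42), at 0.481 to 1.23 CPM in WT-Sham and 3.33 to 5.51 CPM in miKO-Sham. *Iqgap3*, a paralog linked to proliferation, was at 11.1, 12.8 and 11.2 CPM (WT-Sham) and 42.5, 38.2 and 47.0 CPM (miKO-Sham), a log2 fold change of 1.87 (SE 0.17). It rose by 1.39 (SE 0.17) after tFCI in WT and fell by 0.79 (SE 0.16) in miKO, with an interaction of -2.17 (SE 0.24, edgeR adjusted p = 0.000184). All 3 IQGAP genes were higher in miKO-Sham than in WT-Sham without overlap of libraries. For *Iqgap2*, which passed the filter through groups other than WT-Sham, this direction is a description.

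Among the other tubulins, *Tubb2a* fell by 0.74 (log2, SE 0.12) and *Tubb2b* by 1.83 (SE 0.30) in miKO-Sham vs. WT-Sham, and *Tuba4a* was higher by 0.91 (SE 0.17). *Tubb2b* was also lower in miKO-tFCI vs. WT-tFCI by 0.96 (SE 0.29). The neuronal tubulin *Tubb3* and the paralogs *Tubb4a*, *Stmn2* and *Stmn4* stayed at or below 11.2 CPM in all libraries. *Flnc*, the filamin of muscle, was at 0 to 0.416 CPM in Sham and 2.07 to 9.81 CPM after tFCI. Of the intermediate filament paralogs of *Vim*, *Gfap*, the filament protein of astrocytes, rose from 0.120 to 0.448 CPM in WT-Sham to 79.4, 29.1 and 30.6 CPM (WT-tFCI) and 251, 88.1 and 88.5 CPM (miKO-tFCI), again with replicate 1 the highest. *Des*, found in pericytes and muscle, had 0 counts in all Sham libraries and reached 5.27 CPM in miKO-tFCI replicate 1.

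Outside the paralogs, 8 lists of cytoskeleton genes were counted in the same fit. With the paralogs, these lists held 187 genes, of which 185 were found and 168 tested. Genes low in Sham could pass the filter through their tFCI libraries, as some paralogs did, so that the counts after tFCI are a description. In WT-tFCI vs. WT-Sham, 64 of the 168 were called higher (38.1%, against 20.9% of all genes) and 12 lower (7.14%, against 11.7%). In miKO-tFCI vs. miKO-Sham 72 were called higher (42.9%, against 21.9%) and 23 lower (13.7%, against 13.9%). In miKO-tFCI vs. WT-tFCI, 15 were called higher (8.93%, against 4.08%) and 5 lower (2.98%, against 4.71%). In miKO-Sham vs. WT-Sham 29 were called higher (17.3%, against 8.58%) and 17 lower (10.1%, against 6.8%). The interaction was called positive for 6 (3.57%, against 1.25%) and negative for 7 (4.17%, against 2.57%). The median log2 fold change of the 168 was 0.33, 0.39, 0.08 and 0.10 in the 4 comparisons, beside 0.02, 0.03, 0.04 and 0.04 over all genes.

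**Figure D5:**
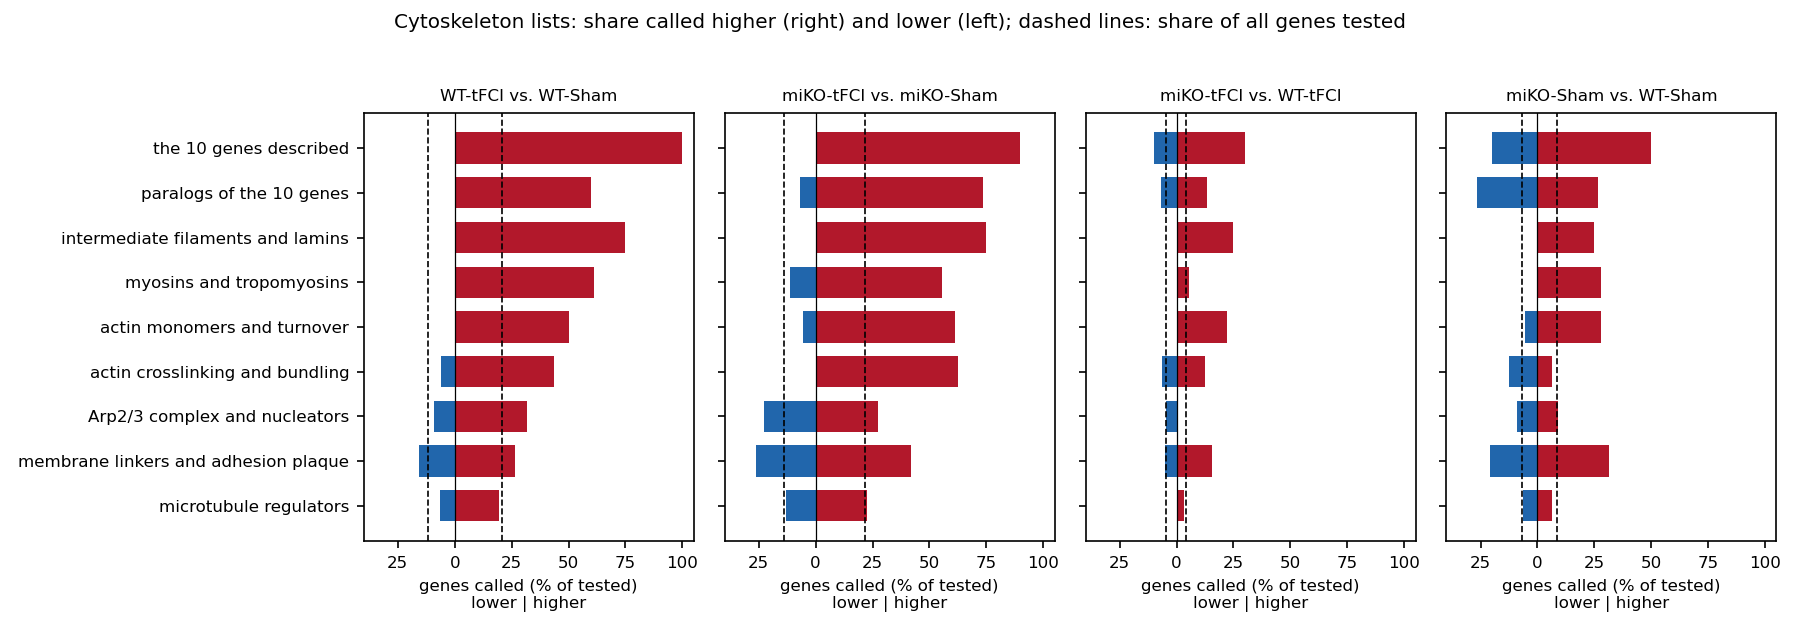
Share of tested genes called higher (red, right) and lower (blue, left) in the 10 genes, their paralogs and lists of other cytoskeleton genes, in percent, for the 4 comparisons of groups, with dashed lines at the share of all genes called. In WT-tFCI vs. WT-Sham the 10 genes, which were chosen on these libraries, lie at 100%, intermediate filaments and lamins at 75% and microtubule regulators at 19.4%, beside 20.9% of all genes. Genes low in Sham could pass the filter on low counts through their tFCI libraries.

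Of 8 tested intermediate filaments and lamins, 6 were called higher after tFCI in each genotype (75%, against 20.9% of all genes in WT and 21.9% in miKO). Only 8 of the 12 listed genes passed the filter on low counts. Genes low in Sham could pass it through their tFCI libraries and hardly be called lower, so that this count is a description. *Lmna*, which encodes lamins A and C of the nuclear envelope, rose in WT from a mean of 10.9 CPM to 67.6 CPM after tFCI (2.59, SE 0.20) and in miKO from 10.2 CPM to 114 CPM (3.46, SE 0.20). It was higher in miKO-tFCI vs. WT-tFCI by 0.75 (SE 0.18), and the cross-linker *Plec* was higher in miKO-Sham vs. WT-Sham by 0.77 (SE 0.23), with overlapping libraries. Of 18 myosins and tropomyosins, 11 were called higher in WT-tFCI vs. WT-Sham (61.1%), led in level by the light chain *Myl6* (1.28, SE 0.19). In miKO-tFCI vs. miKO-Sham 10 were called higher (55.6%) and 2 lower (11.1%, against 13.9% of all genes). *Myo1f*, a myosin of leukocytes, was higher by 1.01 (SE 0.16) in miKO-Sham vs. WT-Sham and fell by 0.99 (SE 0.16) with tFCI in miKO. *Myo5a* was higher by 0.60 (SE 0.13) in miKO-tFCI vs. WT-tFCI.

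Of 18 genes of actin monomers and turnover, 9 were called higher in WT-tFCI vs. WT-Sham (50%, against 20.9% of all genes). In miKO-tFCI vs. miKO-Sham 11 were called higher (61.1%, against 21.9%) and 1 lower (5.56%, against 13.9%). *Actb*, beta-actin, rose by 0.90 (SE 0.21) in WT and 0.77 (SE 0.21) in miKO, and *Cfl1*, the actin-severing cofilin, by 1.29 (SE 0.13) and 0.86 (SE 0.13). *Pfn1*, profilin, rose by 0.83 (SE 0.14) in WT and was at 0.33 (SE 0.14) in miKO, which was not called. *Actb*, *Pfn1* and *Cfl1* were not called between genotypes after either surgery. *Capg* was higher in miKO-tFCI vs. WT-tFCI by 0.77 (SE 0.15). For miKO relative to WT in Sham, *Capzb* was higher by 0.87 (SE 0.12) and *Svil* lower by 0.70 (SE 0.21), and *Twf2* fell by 0.88 (SE 0.13) with tFCI in miKO. Of 16 crosslinking and bundling genes, 7 were higher (43.8%) and 1 lower (6.25%) in WT-tFCI vs. WT-Sham, and 10 were higher (62.5%) in miKO-tFCI vs. miKO-Sham. *Tagln2* was at 2.12 (SE 0.14) and 1.88 (SE 0.14) in these comparisons. The bundling protein *Fscn1* fell by 1.27 (SE 0.32) with tFCI in WT and was not called lower with tFCI in miKO. Its mean level in Sham was 249.6 CPM for WT against 36.4 CPM for miKO, and after tFCI 105.4 CPM against 43.0 CPM, and it was lower in miKO-Sham vs. WT-Sham by 2.73 (SE 0.34) and in miKO-tFCI vs. WT-tFCI by 1.37 (SE 0.33). *Cnn3* was higher in miKO-tFCI vs. WT-tFCI by 1.79 (SE 0.34), with overlapping libraries, and *Coro1c* in miKO-Sham vs. WT-Sham by 0.80 (SE 0.15).

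Of 22 genes of the Arp2/3 complex and nucleators, 7 were higher (31.8%) and 2 lower (9.09%) in WT-tFCI vs. WT-Sham, against 20.9% and 11.7% of all genes. There *Arpc1b* rose by 0.98 (SE 0.12) and the formin *Fmnl3* fell by 0.92 (SE 0.21). In miKO-tFCI vs. miKO-Sham 6 were higher (27.3%, against 21.9% of all genes) and 5 lower (22.7%, against 13.9%). Among them were *Arpc3* (0.77, SE 0.14) and *Fmnl3* (-1.50, SE 0.21). *Spire1* was lower in miKO after either surgery (-0.70, SE 0.15, in tFCI and -0.89, SE 0.15, in Sham), and *Arpc4* was higher in miKO-Sham by 0.60 (SE 0.12).

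Of 19 membrane linkers and adhesion genes, 5 were higher (26.3%) and 3 lower (15.8%) in WT-tFCI vs. WT-Sham, against 20.9% and 11.7% of all genes. In miKO-tFCI vs. miKO-Sham 8 were higher (42.1%) and 5 lower (26.3%), against 21.9% and 13.9%. *Msn*, moesin, which ties actin to the membrane, had mean levels in Sham of 368 CPM for WT against 891 CPM for miKO, and after tFCI of 575 CPM against 1099.8 CPM, higher in miKO by 1.31 (SE 0.19) in Sham and 0.90 (SE 0.19) after tFCI. *Evl* fell by 0.68 (SE 0.12) with tFCI in WT, and in miKO *Zyx* rose by 0.77 (SE 0.16) and *Fermt3* fell by 0.93 (SE 0.15). *Parvg* was lower in miKO-tFCI vs. WT-tFCI by 1.51 (SE 0.13), and *Lasp1* was lower in miKO-Sham vs. WT-Sham by 0.98 (SE 0.13). Of 31 microtubule regulators, 6 were higher (19.4%) and 2 lower (6.45%) in WT-tFCI vs. WT-Sham. In miKO-tFCI vs. miKO-Sham 7 were higher (22.6%) and 4 lower (12.9%). The shares called higher were near those of all genes (20.9% and 21.9%). *Dynll1* rose by 0.61 (SE 0.16), with overlapping libraries, and *Map1s* fell by 0.64 (SE 0.13) in WT, and *Kif5b* rose by 0.60 (SE 0.12) and *Clip1* fell by 0.93 (SE 0.14) in miKO. *Map1b* was higher in miKO-tFCI vs. WT-tFCI by 1.09 (SE 0.27), with overlapping libraries. For miKO relative to WT in Sham, *Map7d1* was higher by 0.74 (SE 0.14) and *Spast* lower by 0.59 (SE 0.13).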

How the data were processed

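The authors aligned paired reads of 150 bases from SMART-Seq v4 libraries (10 ng of RNA, no strand information) and deposited raw read counts per gene; the submitters' processing notes name HISAT2 2.2.1, HTSeq 1.99.2 and GRCm38.p6. A median of 34.6% of reads lay on genes, and the rest stayed out of library sizes. Counts were analysed with edgeR 4.0.16 in R 4.3.3 (filterByExpr, TMM factors 0.864 to 1.11, quasi-likelihood fit of group and batch over 12 libraries, Benjamini-Hochberg adjustment over 16451 genes) with DESeq2 1.42.0 as an alternative, both tested on simulated data. SE is the standard error of the log2 fold change, and within-batch values are differences of log2 CPM with a prior count of 2. Symbols came from GENCODE M21. The genes, lists and tests were chosen with earlier results of these data known. Named genes are the 10, their tested paralogs, *Actb*, *Pfn1*, *Cfl1*, *Hdac3* and, per list, comparison and direction, the called gene with the highest mean CPM. Same-numbered libraries of WT-tFCI and miKO-tFCI deviated together (correlations 0.324 to 0.666). Libraries of batch 2 with different numbers correlated as much (0.327 and 0.395) as those with the same number (0.334 and 0.324). Pairing by number could thus not be told apart from batch. The main fit did not pair libraries, and a block for the replicate number served as an alternative. In every other pair of groups the lowest correlation of same-numbered libraries was under 0.1. The p-values measure the spread between pooled libraries. Which instrument sorted the cells differs between the labels and the methods. Beyond those given, a gene list, a paralog and a sequence are not reported here.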

Additional observations from a re-analysis of the deposited data

Results flagged for a closer look

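The response to tFCI differed between the genotypes, by the interaction term of the edgeR fit, in 2 of the 10 genes, both negative, beside 2.57% negative and 1.25% positive calls over all genes. For *Stmn1* the interaction was -0.85 (log2, edgeR adjusted p = 0.0302), and the rise after tFCI was smaller in miKO (2.69) than in WT (3.54); this call was lost in 9 of 23 alternatives. For *Tuba1c* it was -1.37 (log2, edgeR adjusted p = 0.00453), with a rise of 0.82 in miKO and 2.19 in WT from Sham levels that themselves differed by 1.18. The summed counts of *Tuba1a*, *Tuba1b* and *Tuba1c* gave an interaction of 0.036 (log2, SE 0.19), which was not called. Groups of 3 libraries were too small for a test of single outlying libraries.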

How the results depend on the processing

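The lowest counts per library were those of *Vim* in Sham (37 to 89) and of *Tmsb10* (55 to 66) and *Tubb6* (49 to 145) in miKO-Sham; how much of the error comes from counting was not tested. Of the differences between genotypes, those of *Iqgap1* after both surgeries, of *Flna* and *Tuba1c* in Sham and of *Stmn1* after tFCI were called in every alternative that kept the genes apart. In miKO-tFCI vs. WT-tFCI 3 genes without a call changed sign. *Tubb6* was at -0.092 in batch 2 alone, at -0.10 there without miKO-Sham replicate 2, and at -0.20 to 0.33 with each library left out; *Tmsb10* was at -0.13, -0.14 and -0.24 to 0.55 under the same settings. *Tmsb4x* was at -0.10 with library totals, -0.025 with no filter on low counts, -0.0012 with no batch term, -0.0045 with only the groups compared, -0.032 in batch 2 alone, -0.043 there without miKO-Sham replicate 2, and -0.083 to 0.088 with each library left out. In miKO-Sham vs. WT-Sham, 3 of the 10 genes were called higher with library totals, no batch term, miKO-Sham replicate 2 placed in batch 1, or miKO-Sham replicates 1 and 2 summed, and 3 to 5 with each library left out. Over all genes the 1411 higher and 1119 lower calls there became, under the first 4 of these settings, 834 and 2398, 1006 and 921, 1331 and 1177, and 1193 and 930. Leaving out each library gave 1006 to 1470 higher and 930 to 1234 lower calls, of 16859 to 17283 genes tested. Lower calls of the 10 genes were 1 with no batch term and with the summed replicates, and 0 to 2 with each library left out. *Stmn1* was there at -0.21 with library totals and -0.065 to 0.16 with each library left out, *Tuba1b* at -0.093 with library totals, and the summed alpha-tubulins, in place of *Tuba1b* and *Tuba1c*, at -0.077. In the interaction, *Tubb6* and *Tmsb10* were called positive by DESeq2 and with no filter, beside 327 and 458 of 34185 genes. *Tmsb10* alone was called positive with miKO-Sham replicate 2 in batch 1 (beside 312 of 16451 genes) and with the summed replicates (beside 194 of 17238). With each library left out, 0 to 1 of the 10 were called positive, beside 95 to 299 of all genes. Negative calls were 1 with library totals and with no batch term, beside 279 and 218 of 16451 genes. They were 1 to 3 with each library left out, beside 185 to 584 of all genes. The interaction of *Vim* was 0.15 with library totals, 0.041 with at least 10 counts in every library, 0.064 with no batch term, 0.26 with miKO-Sham replicate 2 in batch 1, 0.10 with the summed replicates, and -0.44 to 0.22 with each library left out. That of the summed alpha-tubulins was 0.036. Placing or summing miKO-Sham replicates and the fit on batch 2 without miKO-Sham replicate 2 were chosen after seeing the data. Beyond these constructions the causes were not tested. Over all genes, miKO-tFCI vs. WT-tFCI had 671 higher and 775 lower calls of 16451 tested, against 213 and 488 of 16451 with no batch term. The calls were 1542 and 993 of 15478 with only the groups compared, and 1200 and 993 of 34185 with no filter. They were 234 and 466 of 17245 without WT-tFCI replicate 2, and 212 and 404 of 17267 without WT-tFCI replicate 3. Without miKO-tFCI replicate 3 they were 348 and 569 of 17242. Because the number of genes tested differed, these counts do not compare directly. The interaction had 206 positive and 423 negative calls of 16451, against 85 and 218 of 16451 with no batch term. With no filter it had 458 and 814 of 34185. It had 95 and 186 of 17245 without WT-tFCI replicate 2, and 96 and 185 of 17267 without WT-tFCI replicate 3. With the replicate block, miKO-tFCI vs. WT-tFCI gave 635 and 794 calls, *Vim* stayed called, and no call of the 10 genes changed.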
